A study of Mus musculus with 4 samples.

Results

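The unfolded protein response and the integrated stress response were followed here through 37 genes that act in them, in T-helper 17 (Th17) cells, the CD4 T cells that make interleukin-17. The genes were taken by symbol and matched to the Ensembl identifiers of the count files. All 37 were found among the 50600 genes listed. They comprise 5 stress sensors, 2 transcription factors, 14 chaperones and folding enzymes of the endoplasmic reticulum (ER), 2 ER oxidases, 4 genes of ER-associated degradation, 8 targets of the transcription factor ATF4 and 2 regulatory subunits of the phosphatase that acts on the initiation factor eIF2. The cells were primary Th17 cells of C57BL/6NJ mice, with no treatment or gene change in the labels. One group of 4 RNA-seq libraries was given, numbered as replicates 1 to 4, and there was no second condition. The levels of the genes were therefore compared with each other inside each library, and the libraries were compared as replicates.

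When unfolded protein builds up in the ER, the membrane proteins IRE1, PERK and ATF6 start the unfolded protein response. IRE1 splices the mRNA of Xbp1, ATF6 is cut to release a transcription factor, and both products raise genes for chaperones and for degradation. PERK belongs to a family of kinases that phosphorylate eIF2, which lowers most translation but favours that of ATF4 mRNA, and ATF4 then raises genes of amino acid supply and of cell death. Gene counts hold the mRNA level of these genes alone, so splicing of Xbp1, cleavage of ATF6, phosphorylation and translation were not measured.

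Libraries held 37025016, 24696730, 32766291 and 36798195 counted fragments in replicates 1 to 4. All 10 Th17 and T-cell markers examined, among them Cd4, Il17f and Irf4, were at 10 or more TPM (transcripts per 1000000, from counts over exon length) in every library. Markers of plasma and B cells, whose secretory apparatus is large, summed to between 1.36 and 3.23 TPM over 8 genes, with Sdc1 highest at 1.10 TPM, and Ms4a1 and Tnfrsf17 had no fragment. The sums were 4.60 to 7.33 TPM over 7 myeloid markers (Cd68 highest at 5.24 TPM), 14.8 to 22.7 TPM over 7 CD8 and NK markers (mostly Nkg7 at 11.4 TPM and Cd8b1 at 7.32 TPM), and 4.17 to 5.93 TPM over 5 stromal and epithelial markers (Pecam1 highest at 3.24 TPM), with Lyz2, Ncr1, Klrb1c, Col3a1 and Krt8 at 0. Replicates 1 and 2 stood apart from replicates 3 and 4 in the X-linked transcript Xist, at 186 and 161 against 0.687 and 0.721 TPM, and in the Y-linked gene Ddx3y, at 0.442 and 0.446 against 88.6 and 83.2 TPM. The labels give 1 donor identifier and a biosample of its own to each library. These values are the pattern of female cells in replicates 1 and 2 and of male cells in replicates 3 and 4. The libraries therefore came from more than 1 animal. The labels do not name the animals behind the replicates, so the spread between libraries may be partly technical. Sex and any other difference between replicates 1 and 2 and replicates 3 and 4 cannot be told apart.

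The stress response genes were on the whole well expressed. Of the 37 genes, 36 (97.3%) reached 1 TPM in every library, against 44.8% of 21764 protein-coding genes. In every library 31 of the 37 genes (83.8%) reached 10 TPM, against 33.9% of protein-coding genes. A level of 100 TPM was reached by 17 (45.9%), against 8.72%. The exception at 1 TPM was Chac1. Together the 37 genes made up 0.954% ± 0.00872 of the summed TPM (SD, n = 4, likewise for each ± that follows), and the 14 ER chaperones made up 0.754% ± 0.00799. The plot of all 37 genes by library shows that genes of the same role could lie far apart, while the 4 libraries of a gene lay close together.

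**Figure D1:**
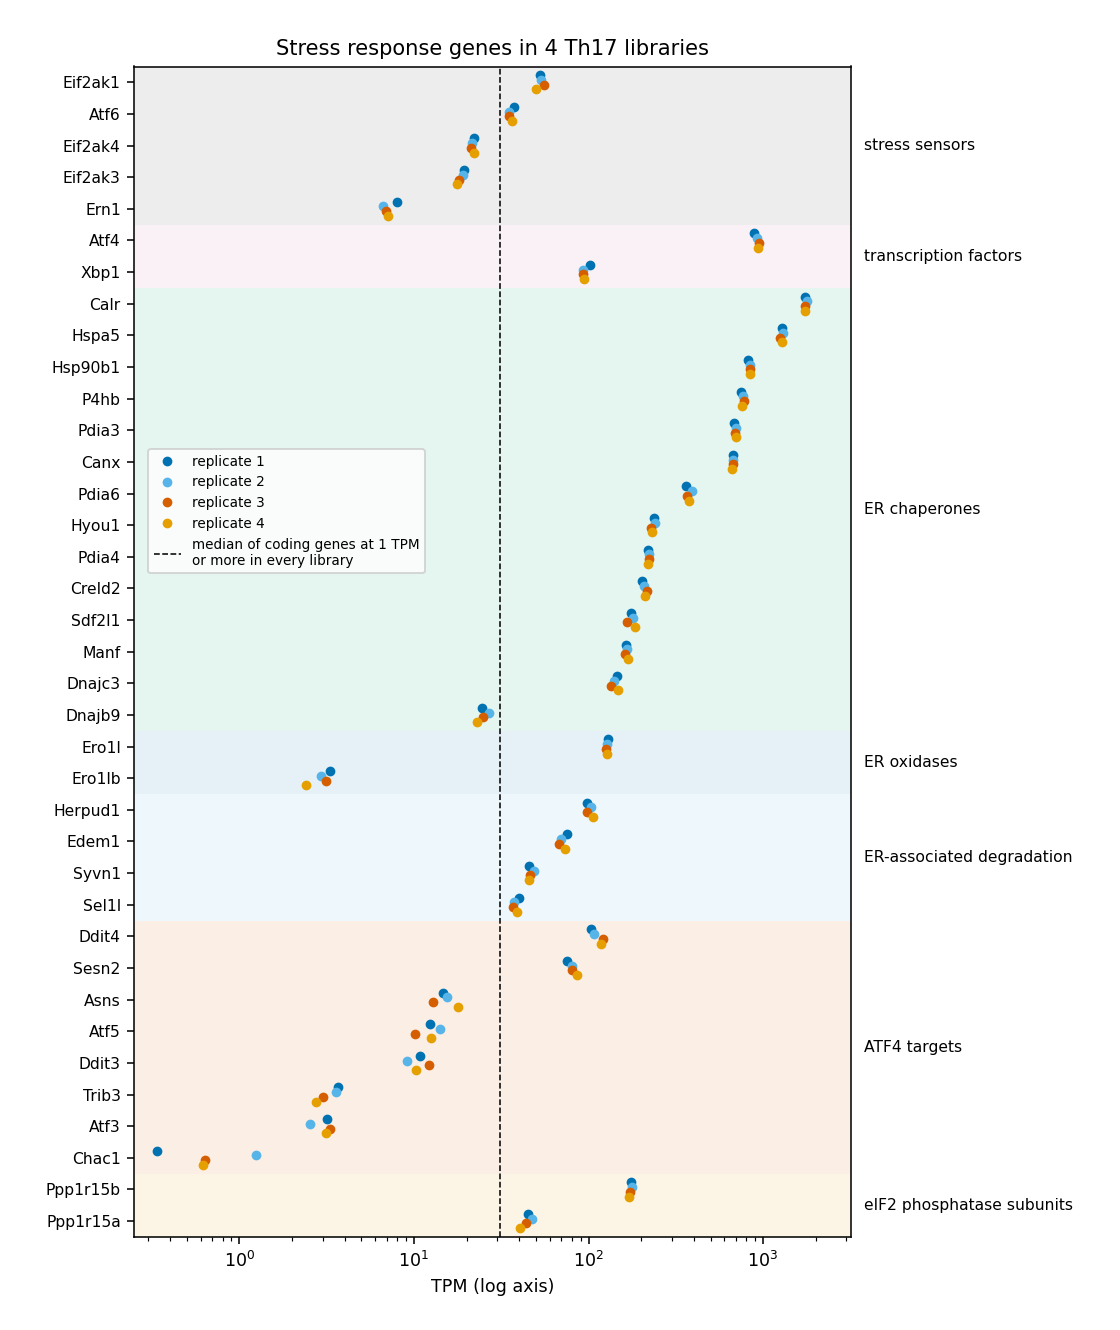
TPM (log axis) of the 37 stress response genes in each of the 4 libraries (coloured points), grouped by role and ordered by mean level; the dashed line is the median mean level, 31.2 TPM, of coding genes at 1 TPM or more in every library. Calr leads at 1752 TPM and Chac1 is lowest at 0.709 TPM.

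Among the sensors, the kinase genes were at middle or low levels. Eif2ak1, which encodes HRI, a kinase known as a sensor of haem shortage, was at 52.8, 53.3, 55.9 and 50.3 TPM in replicates 1 to 4. Eif2ak4 (GCN2, a sensor of uncharged tRNA) was at 22.0, 21.6, 21.3 and 22.1 TPM, and Eif2ak3 (PERK) at 19.3, 19.0, 18.1 and 17.7 TPM. The ranges of these 3 kinases did not overlap. Eif2ak1 was 2.87 ± 0.160 times and Eif2ak4 1.18 ± 0.0545 times the TPM of Eif2ak3, higher in 4 of 4 libraries in both cases. Shared reads may affect these ratios. Of the 50-base words of Eif2ak1 9.22%, and of those of Eif2ak3 5.71%, occur in transcripts of other genes, against 0 for Eif2ak4. The remaining kinase of the family, Eif2ak2 (PKR, which binds double-stranded RNA), was not among the 37 genes and lay lower, at 4.14 ± 0.193 TPM.

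Ern1, which encodes IRE1α, had the lowest level of the 5 sensors among the 37 genes, at 7.95, 6.66, 6.95 and 7.12 TPM. Its gut-restricted relative Ern2 had no fragment in any library. Atf6 was at 37.3, 34.9, 35.0 and 36.4 TPM, and its relative Atf6b was higher, at 156 ± 2.11 TPM. The 2 proteases that cut ATF6 in the Golgi were both detected, with Mbtps1 at 38.4 ± 1.69 TPM and the X-linked Mbtps2 at 17.0 ± 1.04 TPM. Of the 8 genes on the list of other sensors and processing factors, 7 reached 1 TPM and 6 reached 10 TPM in every library.

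Both transcription factor genes were higher than any of the 5 sensors among the 37 genes, and Atf4 was also above Atf6b. Atf4 was at 892, 919, 949 and 936 TPM, which placed it at rank 131 of 21764 protein-coding genes by mean TPM. Xbp1 was at 102.5, 92.5, 93.1 and 94.3 TPM, with replicate 1 above the other 3 libraries, which lay within 2 TPM of each other. The count files give 1 value per gene, so these values add the spliced and unspliced forms of Xbp1.

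ER chaperones and folding enzymes included the highest of the 37 genes, and 13 of the 14 reached 100 TPM in every library. Calr (calreticulin, a calcium-binding chaperone of glycoproteins) was at 1734, 1786, 1745 and 1743 TPM, rank 52 among protein-coding genes. Hspa5, the Hsp70-type chaperone BiP that also holds the sensors inactive, was at 1289.9, 1305, 1252 and 1278 TPM, and Hsp90b1 (the Hsp90-type chaperone GRP94) at 816, 841, 837 and 844 TPM. These 3 genes kept the same order in all 4 libraries, with no overlap. Hspa5 was 1.54 ± 0.0373 times the TPM of Hsp90b1. Calr was 2.62 ± 0.0349 times the TPM of Canx, the membrane-bound partner of calreticulin, which was at 669, 672, 676 and 662 TPM.

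Protein disulfide isomerases, which form and reshuffle disulfide bonds, ranged between 218 and 773 TPM. P4hb was at 745, 769, 773 and 760.0 TPM, and Pdia3, which works with calreticulin and calnexin, at 678, 699, 688 and 704 TPM. The 2 ranges did not overlap, and the ratio of P4hb to Pdia3 was 1.10 ± 0.0185. With the length of the longest annotated transcript in place of the summed exons the order turned round, to a mean log2 difference of -0.042 against 0.14. Pdia6 was at 373 ± 12.0 TPM and Pdia4 at 221 ± 1.64 TPM.

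Co-chaperones and smaller ER proteins were all below Pdia6. Hyou1, a large Hsp70 relative that acts as a nucleotide exchange factor of BiP, was at 234 ± 5.63 TPM. Creld2 (208 ± 5.72 TPM), Sdf2l1 (176 ± 7.94 TPM), which works with BiP and its J-domain partners, and the secreted factor gene Manf (165 ± 2.25 TPM) followed. Creld2 lay above the other two in every library, and the ranges of Sdf2l1 and Manf overlapped. With the length of the longest annotated transcript the order changed, to Manf at 185, Creld2 at 149 and Sdf2l1 at 126 TPM. Among the J-domain partners of BiP, Dnajc3 (also known as p58IPK, which inhibits PERK) was at 147, 140.2, 135 and 148 TPM, while Dnajb9 (ERdj4) was at 24.4, 26.8, 24.9 and 23.1 TPM. Dnajb9 was the only one of the 14 under 100 TPM. Its value may be raised or lowered by shared reads, since 5.50% of its 50-base words occur in transcripts of other genes. The share was 9.75% for Hsp90b1. Throughout, words were matched on both strands, although counting was stranded. In addition, 5.38% of the exon bases of Hsp90b1 lie in exons of another gene on the same strand.

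The ER stress response element is a promoter sequence through which the unfolded protein response is known to act. It is bound at its first part by the general factor NF-Y and at its second part by ATF6 or XBP1. It was searched as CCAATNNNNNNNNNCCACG on both strands of RefSeq promoter windows (GRCm38.p6, 250 bases before to 50 after the annotated start), of which 33 of the 37 genes had one. No window was matched for Atf6, Ppp1r15b, Hyou1 and Manf. The promoters of Hspa5, Calr and Hsp90b1 are shown because they belong to the most abundant chaperones, each as the 250 bases before the start on the gene's own strand, 5′ to 3′, with the fixed bases of the element in capitals (on the opposite strand it reads CGTGG, then ATTGG).
Hspa5, chr2:34771840-34772089 (+): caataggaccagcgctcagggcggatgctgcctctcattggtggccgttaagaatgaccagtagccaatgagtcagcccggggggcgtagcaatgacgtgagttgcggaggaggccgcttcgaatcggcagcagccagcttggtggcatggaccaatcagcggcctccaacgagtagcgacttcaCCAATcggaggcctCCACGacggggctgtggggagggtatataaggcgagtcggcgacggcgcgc
Calr, chr8:84846932-84847181 (-): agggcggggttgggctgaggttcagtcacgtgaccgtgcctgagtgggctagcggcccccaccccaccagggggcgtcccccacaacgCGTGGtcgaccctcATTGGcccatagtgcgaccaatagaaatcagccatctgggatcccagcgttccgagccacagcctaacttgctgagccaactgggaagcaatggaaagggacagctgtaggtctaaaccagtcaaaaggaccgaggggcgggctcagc
Hsp90b1, chr10:86705445-86705694 (-): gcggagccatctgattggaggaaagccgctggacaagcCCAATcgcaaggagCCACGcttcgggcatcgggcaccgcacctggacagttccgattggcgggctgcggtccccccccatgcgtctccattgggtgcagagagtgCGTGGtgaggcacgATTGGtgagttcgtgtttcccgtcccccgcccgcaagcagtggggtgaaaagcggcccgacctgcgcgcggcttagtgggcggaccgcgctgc

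The element was held by 9 of the 33 genes, which is 27.3% of them, against 0.137% of the 27025 genes with a promoter window. The genes were taken because they act in these responses, and the elements searched here are known ones of the same responses. Such shares are therefore a description and no independent test. These 9 were 24.3% of the 37 genes that held it in the whole table. Of the 12 chaperones with a window, 7 had it, namely Hspa5, Hsp90b1, Calr, Canx, Dnajc3, Creld2 and Pdia6, against 0 of 8 ATF4 targets. The other 2 genes were Ero1lb and Syvn1. Hsp90b1 had 2 copies, on opposite strands. The remaining sites are shown with 11 bases on each side, so that the spacing and the variable bases between the 2 parts can be compared.
Canx, chr11:50325789-50325829 (-): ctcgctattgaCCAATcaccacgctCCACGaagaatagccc
Pdia6, chr12:17266480-17266520 (+): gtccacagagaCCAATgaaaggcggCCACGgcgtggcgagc
Creld2, chr15:88819509-88819549 (+): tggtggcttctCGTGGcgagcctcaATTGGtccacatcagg
Dnajc3, chr14:118937816-118937856 (+): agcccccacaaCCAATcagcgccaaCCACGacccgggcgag
Syvn1, chr19:6046521-6046561 (+): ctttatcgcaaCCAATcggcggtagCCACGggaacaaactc
Ero1lb, chr13:12565671-12565711 (+): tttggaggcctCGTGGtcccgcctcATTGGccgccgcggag

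All these sites lay upstream of the annotated start, between 26 and 212 bases before it. Levels varied widely among the genes with the element. The 9 genes that held it ranged between 2.94 TPM (Ero1lb) and 1752 TPM (Calr), with a median of 373 TPM. The 24 genes with a window but no match had a median of 48.7 TPM. Most of the 9 were chaperones, while the 24 included all 8 ATF4 targets, so role and element cannot be told apart. Chaperones with a window but no match were P4hb, Pdia3, Pdia4 and Sdf2l1, at 762, 692, 221 and 176 TPM, and Dnajb9 at 24.8 TPM. Across the 29 uniquely named coding genes of the table that held it, 44.8% reached 1 TPM in every library, against 47.7% of 16470 coding genes with a window. A level of 100 TPM was reached by 8 of them (27.6%), against 9.30%. Among these 8 were all 7 chaperones that held it, so the share is mostly theirs. Derl3, an ER-associated degradation gene outside the 37, also held the element and was at 0.302 ± 0.149 TPM. A shorter element of this response, TGACGTGG, was in none of the 33 genes and in 0.676% of all windows. A match is a run of letters in a reference sequence and no measure of binding in these cells.

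**Figure D2:**
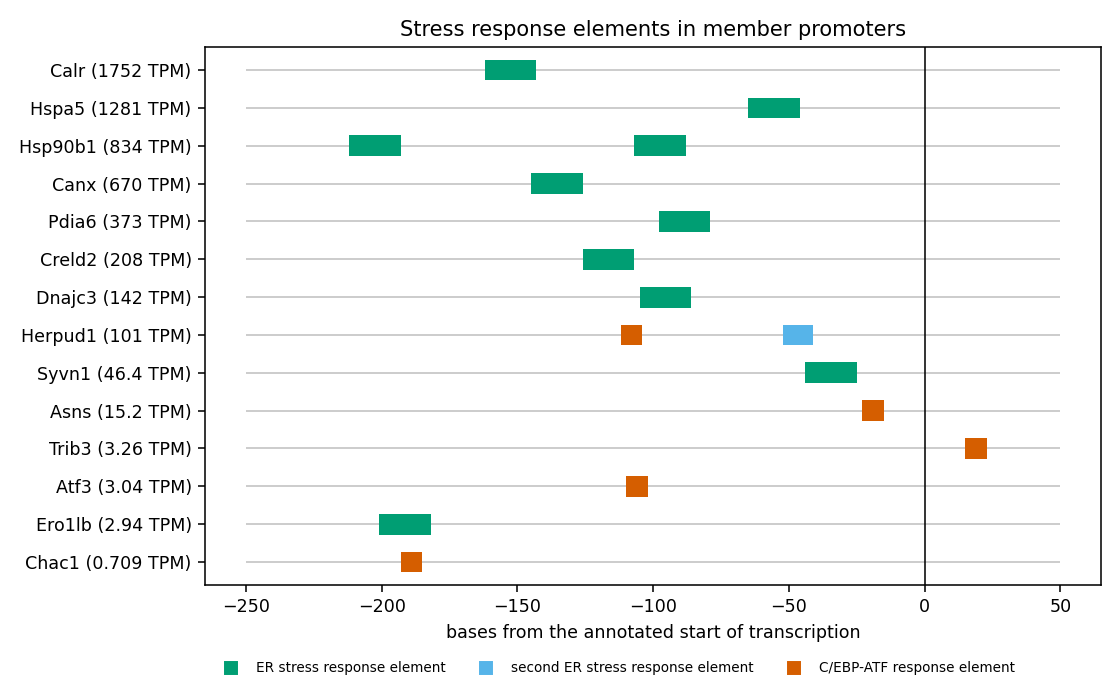
Positions of the ER stress response element (green), its second form (light blue) and the C/EBP-ATF response element (orange) in the promoter windows (grey lines) of the 14 genes that held one, in bases from the annotated start of transcription; genes run by mean TPM, highest at the top. Green bars fill the upper 7 rows and also stand at Syvn1 and Ero1lb, and orange bars lie mostly in the lower rows, from Asns at 15.2 TPM to Chac1 at 0.709 TPM.

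The 2 ER oxidases, which pass oxidising power to the disulfide isomerases, were at unlike levels. Ero1l (also Ero1a) was at 130.0, 127, 126 and 127 TPM, and Ero1lb (also Ero1b) at 3.30, 2.93, 3.12 and 2.40 TPM. The ranges lay far apart, with a ratio of 44.0 ± 6.16. For Ero1lb, 9.39% of 50-base words are shared with transcripts of other genes, mostly the unnamed locus Gm18562. The ER stress response element was in the window of the scarcer Ero1lb, whereas no match was found for Ero1l.

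All 4 genes of ER-associated degradation, which moves misfolded protein out of the ER for destruction, reached 10 TPM in each library. Herpud1, a membrane scaffold of the degradation complex, was at 98.0, 104, 97.6 and 106 TPM. The mannosidase-like Edem1 was at 75.5, 69.3, 67.4 and 73.3 TPM. Syvn1 (the ubiquitin ligase HRD1) was at 45.5, 48.6, 46.0 and 45.4 TPM and its partner Sel1l at 40.1, 37.3, 37.01 and 38.9 TPM. The ranges of the ligase and its partner did not overlap. Of 13 other genes of this route, 12 reached 10 TPM in all 4 libraries, with the extracting ATPase Vcp highest at 306 ± 4.86 TPM and Derl3 the exception.

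Herpud1 stood apart in its promoter. It held the second form of the ER stress response element, searched as ATTGG and CCACG with 1 base between them, which was in 12 of 32851 windows (0.0365%), and also the C/EBP-ATF response element through which ATF4 is known to act with a C/EBP partner, searched as TGATGNAA. It was the 1 gene of the 33 with elements of both kinds, at 101 TPM. Its 250 bases are shown with both in capitals.
Herpud1, chr8:94386179-94386428 (+): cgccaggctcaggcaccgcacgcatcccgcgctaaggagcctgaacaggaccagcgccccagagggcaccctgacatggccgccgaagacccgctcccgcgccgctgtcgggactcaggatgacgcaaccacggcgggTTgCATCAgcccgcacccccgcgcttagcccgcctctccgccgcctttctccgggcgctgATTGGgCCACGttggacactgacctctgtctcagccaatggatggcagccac

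Targets of ATF4 had lower and more scattered levels, although Atf4 itself was abundant. Ddit4 (REDD1, an inhibitor of mTORC1) was at 102.7, 107, 121 and 118 TPM, and Sesn2 (sestrin 2, which lowers mTORC1 activity when leucine is short) at 75.0, 80.2, 80.1 and 86.0 TPM. These 2 genes stood apart from the other 6. Asns (asparagine synthetase) was at 14.7, 15.4, 12.8 and 17.8 TPM, Atf5 (a transcription factor linked to mitochondrial stress) at 12.4, 14.2, 10.2 and 12.6 TPM, and Ddit3 (CHOP, a pro-apoptotic transcription factor) at 10.8, 9.08, 12.3 and 10.2 TPM. The ranges of Atf5 and Ddit3 overlapped, and Asns overlapped with Atf5. Ddit3 was at 0.0115 ± 0.00134 and Atf5 at 0.0133 ± 0.00195 of the TPM of Atf4. These shares depend on the length used. With that of the longest annotated transcript, Ddit3 was at 14.6, Atf5 at 9.68 and Atf4 at 662 TPM.

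The lowest of the group were 3 genes known for strong induction by stress. Trib3, a pseudokinase that binds AKT and ATF4, was at 3.67, 3.60, 3.02 and 2.76 TPM, and Atf3, a transcription factor of immediate responses, at 3.16, 2.53, 3.31 and 3.15 TPM. Their ranges overlapped. Chac1, which breaks down glutathione, was at 0.337, 1.25, 0.632 and 0.616 TPM from 6, 15, 10 and 11 fragments, the thinnest evidence among the 37 genes. Its highest value was in replicate 2, the library with the fewest fragments in all.

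Among the 8 ATF4 targets, 4 held the C/EBP-ATF response element in their windows, namely Asns, Trib3, Chac1 and Atf3. With Herpud1 that made 5 of the 33 genes (15.2%), against 4.51% of all genes with a window. The promoters of Asns, the classic amino acid response gene, and of Chac1 are shown as 250 bases before the start, and the sites of Atf3 and Trib3 with 11 bases on each side; that of Trib3 starts 15 bases after the annotated start.
Asns, chr6:7693210-7693459 (-): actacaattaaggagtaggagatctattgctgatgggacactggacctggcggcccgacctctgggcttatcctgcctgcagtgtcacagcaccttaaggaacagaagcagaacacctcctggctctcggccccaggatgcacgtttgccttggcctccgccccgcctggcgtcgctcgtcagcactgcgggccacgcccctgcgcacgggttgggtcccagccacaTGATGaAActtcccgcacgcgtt
Chac1, chr2:119350992-119351241 (+): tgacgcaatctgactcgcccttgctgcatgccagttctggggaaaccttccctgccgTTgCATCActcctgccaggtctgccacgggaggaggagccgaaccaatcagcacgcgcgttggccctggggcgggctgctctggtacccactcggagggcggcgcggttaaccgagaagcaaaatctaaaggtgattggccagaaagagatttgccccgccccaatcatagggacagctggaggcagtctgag
Atf3, chr1:191183425-191183454 (-): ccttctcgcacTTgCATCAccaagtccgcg
Trib3, chr2:152344028-152344057 (-): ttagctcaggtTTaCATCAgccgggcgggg

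The 18 other genes linked to ATF4 lay between no fragment and 621 TPM. Among those of serine synthesis and one-carbon metabolism, Shmt2 was at 621 ± 18.3 TPM, Psat1 at 226 ± 5.59, Mthfd2 at 215 ± 4.02 and Phgdh at 187 ± 6.91 TPM. Amino acid transporter genes lay at both ends, with Slc7a5 at 427 ± 10.2 TPM, its heavy chain partner Slc3a2 at 241 ± 5.47 TPM and Slc7a1 at 110.0 ± 2.50 TPM, but the cystine transporter Slc7a11 at 0.0120 TPM. Nupr1 and the secreted stress hormones Gdf15 and Fgf21 had no fragment. The proline synthesis gene Aldh18a1 was at 164 ± 6.65 TPM, Pck2 at 4.15 ± 0.743 TPM and the transsulfuration gene Cth at 0.526 ± 0.111 TPM. In all, 11 of the 18 reached 1 TPM in every library and 8 reached 100 TPM.

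Genes of the 2 ATF4 lists that held the element in the window had the lower median here. The 9 with it ranged between 0 and 15.2 TPM (median 0.709 TPM), and the 15 with a window but no match ranged between 0 and 621 TPM (median 110.0 TPM). Of the 9, 4 reached 1 TPM in every library (44.4%), against 13 of the 15 (86.7%). The same direction held over the table, where 31.0% of 655 coding genes with the element reached 1 TPM in every library, against 47.7% of all coding genes with a window. Whether the element bears on the level was not tested. Elements outside the window were not searched, and Slc7a5 and Cth had no window. Sites in the lower genes are shown so that their variable base and flanks can be compared with those of Asns. Their fixed bases are the same because the search required them. Slc7a11 had 2 sites.
Pck2, chr14:55540152-55540181 (+): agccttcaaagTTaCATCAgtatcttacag
Slc7a11, chr3:50443661-50443690 (-): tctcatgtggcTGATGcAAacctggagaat
Slc7a11, chr3:50443642-50443671 (-): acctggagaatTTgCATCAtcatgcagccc
Vldlr, chr19:27216809-27216838 (+): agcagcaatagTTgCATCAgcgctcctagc
Nupr1, chr7:126625562-126625591 (-): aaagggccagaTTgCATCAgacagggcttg
Fgf21, chr7:45615611-45615640 (-): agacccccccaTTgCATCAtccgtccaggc

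**Figure D3:**
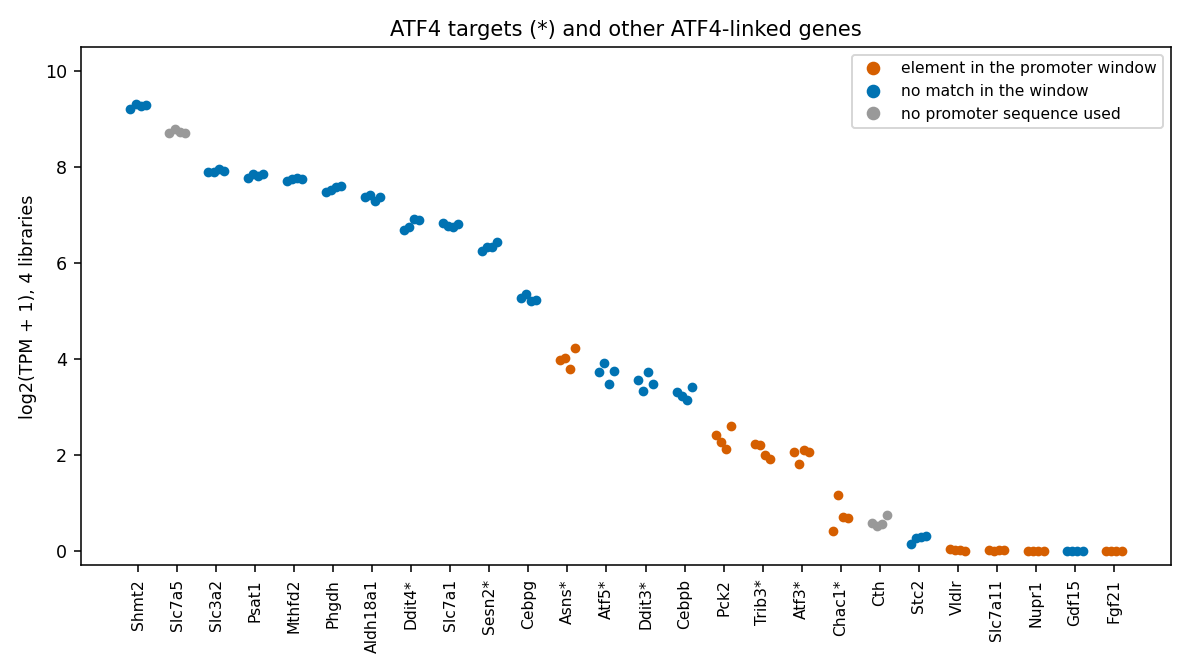
Level as log2(TPM + 1) of the ATF4 targets (marked *) and the other ATF4-linked genes in each of the 4 libraries, ordered by mean; orange genes held the C/EBP-ATF response element in the promoter window, blue genes did not, and grey genes had no promoter sequence used. Every orange gene lies at or below Asns, at 15.2 TPM.

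The phosphatase subunits bring PP1 to phosphorylated eIF2. Ppp1r15b (CReP, the constitutive subunit) was at 176, 177, 174 and 171 TPM, and Ppp1r15a (GADD34, the stress-induced subunit) at 45.0, 47.5, 43.9 and 40.7 TPM. The constitutive subunit was higher in 4 of 4 libraries, with a ratio of 3.95 ± 0.196, though 10.6% of its 50-base words are shared with the unnamed locus Gm26616. The substrate was well expressed. All 8 subunits of eIF2 and of its exchange factor eIF2B reached 10 TPM in every library, led by Eif2s1, which carries the phosphorylated serine, at 255 ± 8.34 TPM. One of them, the X-linked Eif2s3x, was at 156 and 159 TPM in replicates 1 and 2 against 100.1 and 102.7 TPM in replicates 3 and 4, the same split as Xist and Ddx3y.

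In the comparison of the 2 arms, the mean log2(TPM + 1) was 8.42 ± 0.02 over the 14 ER chaperones and 3.66 ± 0.04 over the 8 ATF4 targets. The difference was 4.79, 4.74, 4.77 and 4.74 in replicates 1 to 4, a mean of 4.76 ± 0.02. All coding genes at 1 TPM or more in some library averaged 4.86 on that scale, below the chaperones and above the ATF4 targets. Of the 112 combinations of 1 chaperone and 1 ATF4 target, the chaperone was higher in every library in 110, and in 2 it was lower in every library, Dnajb9 against Ddit4 and Dnajb9 against Sesn2. Hspa5 was 85.6 ± 10.8 times the TPM of Asns.

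The size of this difference depended on which genes stood for each arm. With the 14 other ER folding factors and the 18 other ATF4-linked genes added, it was 3.41. The mean log2(TPM + 1) was 6.43 ± 0.01 over those 14 folding factors, led by the glucosidase gene Ganab at 313 ± 9.42 TPM with Txndc11 lowest at 22.8 ± 0.253 TPM, and 4.17 ± 0.03 over those 18 genes. Translocon and signal peptidase genes, which bring new proteins into the ER, averaged 7.25 ± 0.02, and all 10 reached 10 TPM in every library, with Ssr2 highest at 317 ± 4.13 TPM and Sec61g lowest at 31.1 ± 0.495 TPM. Since the libraries came from bulk cells, fewer cells with a transcript and less of it per cell cannot be told apart.

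**Figure D4:**
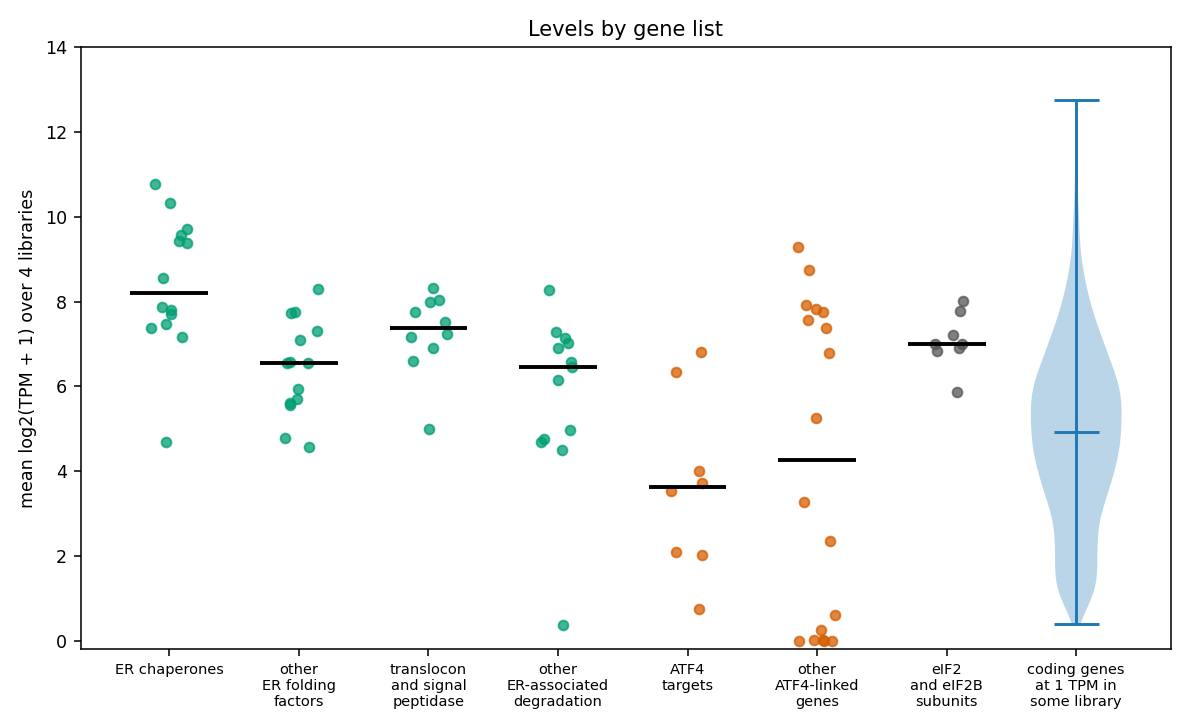
Mean log2(TPM + 1) over the 4 libraries of each gene (points) in 7 lists, with the list median (black line), beside the distribution over 1 in 4 coding genes at 1 TPM or more in some library (violin, with its median and range). ER chaperones average 8.42 and ATF4 targets 3.66, and the other ATF4-linked genes spread between 0 and 621 TPM.

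Within libraries 10 gene pairs were compared, and all 10 kept 1 direction in 4 of 4 libraries. For each the exact two-sided sign-flip test on log2(TPM + 1) gave p = 0.125, the smallest value that 4 libraries allow, and 0.125 after Benjamini-Hochberg adjustment over the 10 pairs. No pair could therefore pass 0.05.

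Upstream start codons in the 5′ leader are the known means by which Atf4, Atf5, Ddit3 and Ppp1r15a are translated under stress. They were counted as ATG triplets before the coding start in 1 basic transcript per gene (GENCODE M21). Ppp1r15a had 7, Atf4 3, and Ddit3 and Atf5 2 each. Ppp1r15b, Eif2ak3, Dnajb9 and Syvn1 had 3 each. In all, 8 of the 37 genes had 2 or more, against 33.5% of 20599 coding genes with a leader, and 15 had at least 1, against 54.4%. Both shares were below those of coding genes in general. The 14 ER chaperones had none, with or without the ER stress response element, apart from 1 each in Hspa5 and P4hb and 3 in Dnajb9.

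The spread between replicates was tested gene by gene. With edgeR, each gene's residual spread was set against the trend of genes of like abundance, for 36 of the 37 genes, since Chac1 did not pass the filter on low counts. None of the 36 varied beyond the trend at an adjusted p under 0.05, against 36 of 11847 genes tested (0.304%), and the smallest adjusted p among the 36 was 0.763. At an unadjusted p under 0.05 were 3 of the 36, Asns, Edem1 and Ddit4, against 674 genes tested (5.69%). limma-trend also called none of the 36 at an adjusted p under 0.05, against 0.338% of genes tested. At an unadjusted p under 0.05 it had 3, against 5.77% of genes tested. Among the genes of the other lists, Eif2s3x was called, at an edgeR adjusted p of 6.58e-10.

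The coefficient of variation (CV) of TPM fell with depth, as it did for other coding genes. For the 14 genes with 5000 to 60000 fragments per library, 11 of them chaperones, the median CV was 1.58%, against 2.53% for coding genes of that depth. For the 16 genes with 500 to 5000 fragments it was 4.42%, against 3.91%. The 6 genes with 50 to 500 fragments, 5 of them ATF4 targets, had a median CV of 13.3%, against 9.44%. Pdia4 was the steadiest, at 0.745%, and Chac1 the most variable, at 54.4%, where counting error alone gives 32.6%.

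Among the 6 genes with 50 to 500 fragments, Asns moved most beyond its counting error, with a CV of 13.7% where counting alone gives 5.09%. It was highest in replicate 4 and lowest in replicate 3. Pck2, the mitochondrial PEPCK gene and another ATF4-linked gene, had its highest and lowest values in the same libraries, at 4.38, 3.81, 3.35 and 5.07 TPM, and was named after its values were seen. Without replicate 3 the unadjusted edgeR p of Asns was 0.116, and without replicate 4 it was 0.210. Ddit4, with an unadjusted edgeR p of 0.0428, was lower in replicates 1 and 2 than in replicates 3 and 4, the same split as Xist. So were Atf4 and Creld2, while Eif2ak3, Hspa5, Hyou1, Ppp1r15a, Ppp1r15b and Trib3 were higher in replicates 1 and 2. These 9 of the 37 genes stand against 35.5% of 9761 coding genes at 1 TPM or more in each library whose values did not overlap between these pairs of libraries. Edem1 was highest in replicate 1 and lowest in replicate 3, with an unadjusted edgeR p of 0.0307.

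**Figure D5:**
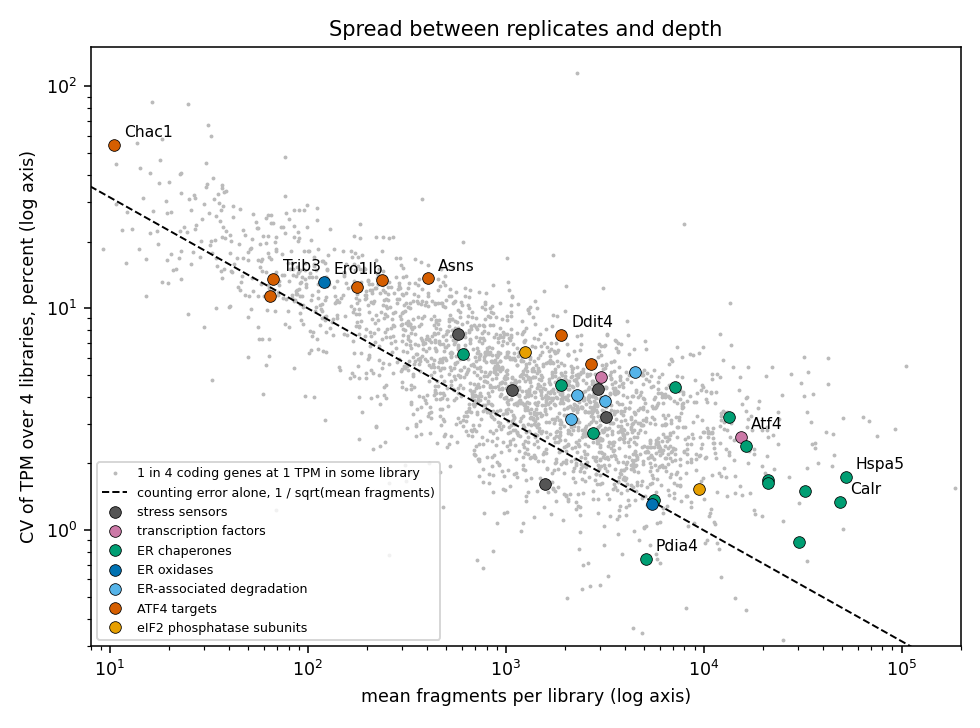
CV of TPM over the 4 libraries against mean fragments per library (both log axes) for the 37 genes, coloured by role, over 1 in 4 coding genes at 1 TPM or more in some library (grey); the dashed line is counting error alone. ER chaperones lie at the lower right, with Pdia4 at 0.745%, and ATF4 targets at the upper left, with Chac1 at 54.4%.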

How the data were processed

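RNA-seq libraries of 4 Th17 samples were analysed as 1 group. Per the file headers, the authors made raw counts of fragments per gene with featureCounts 1.4.6-p4 on paired-end alignments, with GENCODE M13 and strand option 2; the other values deposited with them are summed exon lengths. Per the labels the build is mm10. The labels name a total RNA assay, while the library protocol named there is for polyA+ RNA; the 16 hr tag in the headers is not explained. Fragments with several placements, or that overlap several genes, are left out under the counter's default, and the headers do not show whether it applied.

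TPM was computed as count over exon length scaled to 1000000. A floor of 3 fragments is 0.275 to 0.409 TPM for a 1 kb gene (counting error alone). Spread between replicates was tested on counts with edgeR 4.0.16 in R 4.3.3 (TMM, filterByExpr, intercept only, robust prior; common BCV 5.43%), and checked on simulated data. Pairs used exact sign-flip tests on log2(TPM + 1), a scale that understates differences of low genes. Symbols were matched for 50376 genes (GENCODE M21). Named genes were, by rule, all 37 members, the highest and lowest of each list of other genes with any called variable, and the highest and undetected markers; further genes were added for their role or promoter after their values were seen. The members, lists and tests were chosen with earlier results of these data known. Alternatives used limma 3.58.1, DESeq2 1.42.0 size factors, other scalings and each replicate left out. Protein sequences were not analysed here. Other steps ran in Python 3.11.15 (pandas 2.3.3, numpy 2.4.6, scipy 1.17.1) and figures in matplotlib 3.10.9.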

Additional observations from a re-analysis of the deposited data

Results flagged for a closer look

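Syvn1, the ubiquitin ligase gene, was at 48.6 TPM in replicate 2, while the other 3 libraries lay between 45.4 and 46.0 TPM. The gap between that library and the nearest other was 0.834 of the whole range, which is past Dixon's 95% limit for 4 values. Of 48 sets of 4 values examined this was the 1 that passed, and chance alone passes about 1 in 20. Without replicate 2 the unadjusted edgeR p for spread of Syvn1 was 0.958, and with all 4 libraries it was 0.537.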

How the results depend on the processing

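The difference between ER chaperones and ATF4 targets, 4.76 in mean log2(TPM + 1), kept its direction in every alternative run. It was 5.03 with a pseudocount of 0.1, 4.59 between list medians, 4.34 without members under 1 TPM, 5.16 in CPM with no length correction, 4.59 without the disulfide isomerases, 5.07 without Atf3, Atf5 and Ddit4, and 3.41 with the other folding factors and ATF4-linked genes added, an alternative chosen after seeing the data. It lay between 4.75 and 4.77 with each replicate left out. No member was called variable in any of the 10 alternatives, against 0.126% to 0.454% of genes tested. At an unadjusted p under 0.05 were 1 to 4 members, against 4.73% to 5.98% of genes tested. The count of members at 1 TPM or more in every library was 36 throughout. In CPM 9 of 10 pairs kept 1 direction. With the longest basic transcript as length, chosen after seeing the data, P4hb minus Pdia3 was -0.042 in place of 0.14. By mean TPM, Manf then lay above Creld2 and Ddit3 above Atf5. That scaling moved the median coding gene at 1 TPM by -0.16 and the median member by -0.33 in log2, and no member by over 1.5 times. No paired analysis was possible because there is 1 group. Low counts limit Chac1 most, and 4 libraries cannot bring a sign-flip p under 0.125.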

Other observations

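Replicates 1 to 4 were the highest library for 9, 10, 9 and 9 of the 37 members, beside 30.6%, 20.8%, 28.5% and 20.1% of coding genes at 1 TPM or more in each library. They were the lowest for 11, 5, 12 and 9 members, beside 18.9%, 32.0%, 22.0% and 27.2% of those coding genes. Among the eIF2B subunits, which form the exchange factor that phosphorylated eIF2 inhibits, Eif2b5 was highest at 219 ± 4.08 TPM and Eif2b3 lowest at 57.5 ± 0.643 TPM. The C/EBP genes whose products can pair with ATF4 were at 37.4 ± 1.76 TPM for Cebpg and 8.70 ± 0.745 TPM for Cebpb, with no overlap between libraries. Nfe2l2 (NRF2), a transcription factor of the oxidative stress response that PERK can phosphorylate, was at 37.01 ± 0.535 TPM.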
